A study of Mus musculus with 12 samples.

Results

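The genes described here are 10 markers of myofibroblasts and mural cells, taken by symbol as rows of a count table of 54532 mouse genes, and all 10 passed the filter on low counts that left 24642 genes to test. They are the contractile genes *Acta2*, *Actg2*, *Tagln*, *Cnn1*, *Myl9* and *Myh11*, the intermediate filament genes *Des* and *Vim*, and the receptor genes *Pdgfrb* and *Pdgfra*. RNA-seq counts came from whole kidneys of 12 C57BL/6 mice (the J substrain per the study's methods) killed at 18 days of age, in 4 groups of 3 mice. The study asked whether a miR-17 binding motif in the 3′-UTR of *Pkd2* restrains that gene and drives polycystic kidney disease. The noncystic groups were *Pkd1* RC mice without Cre that were *Pkd2* +/+ (mice 19, 20 and 21) or *Pkd2* Δ17/Δ17 (mice 22, 23 and 24), and the cystic groups were *Pkd1* RC/- mice that were *Pkd2* +/+ (mice 25, 26 and 27) or *Pkd2* Δ17/Δ17 (mice 28, 29 and 30). Δ17 is an allele made by CRISPR/Cas9 that lacks the motif in every cell. All groups carried the hypomorphic RC allele of *Pkd1*, controls included. By the study's breeding scheme the other *Pkd1* allele was a floxed one in noncystic and cystic mice alike (RC/F), though the sample labels name it in the cystic groups alone, and only the cystic mice also carried Ksp-Cre, which removes it. Ksp-Cre is a driver known for activity in renal tubule epithelium, and the inactivation was thus aimed at tubules and not at myofibroblasts and mural cells. Which cells expressed the 10 genes in these kidneys was not measured. The labels give no sex.

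Myofibroblasts are contractile, matrix-producing cells that appear in injured tissue, and mural cells are the smooth muscle cells and pericytes that wrap blood vessels. Resident kidney fibroblasts and pericytes carry PDGF receptors, and on injury they are known to divide, lay down matrix and take up α-smooth muscle actin, the product of *Acta2*. Smooth muscle myosin heavy chain, the product of *Myh11*, instead marks differentiated smooth muscle of arteries and of the renal pelvis. Serum response factor and its partners of the myocardin family switch on many contractile genes through the CArG box of their promoters.

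Total counts ran from 18800307 to 24453033 per mouse, and levels are given as CPM, counts relative to the library total scaled by a TMM factor, which was 0.933 to 0.972 in noncystic and 1.04 to 1.08 in cystic kidneys. The kidney label held in every library, since 6 proximal tubule markers summed to between 2508 and 8356 CPM. *Pkd2* lay between 194 and 219 CPM in noncystic and between 213 and 233 CPM in cystic *Pkd2* +/+ kidneys, and between 270.5 and 286 CPM and between 307 and 337 CPM in the corresponding Δ17/Δ17 kidneys. These reads do not show the short deletion itself. *Pkd1* lay between 50.4 and 81.6 CPM in all 12 kidneys, and its deletion in tubules cannot be read from a whole-kidney count. No pair of libraries of a group agreed within sampling noise (chi-square per degree of freedom between 8.88 and 24.3).

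In GRCm38 with the GENCODE M21 annotation, all 10 genes are protein-coding. *Acta2*, the α-smooth muscle actin gene, lies on the reverse strand at chr19:34241090-34255590, and *Actg2*, the γ-smooth muscle actin gene, on the reverse strand at chr6:83512905-83536265. *Tagln* (transgelin, an actin-bundling protein of smooth muscle) lies on the reverse strand at chr9:45929619-45936058, *Cnn1* (calponin, an inhibitor of actomyosin) on the forward strand at chr9:22099216-22109630, *Myl9* (a regulatory myosin light chain) on the forward strand at chr2:156775420-156781658 and *Myh11* on the reverse strand at chr16:14194535-14291372. *Des* (desmin, the muscle intermediate filament) lies on the forward strand at chr1:75360329-75368579, *Vim* (vimentin, the mesenchymal intermediate filament) on the forward strand at chr2:13573927-13582826, *Pdgfrb* on the forward strand at chr18:61045150-61085061 and *Pdgfra* on the forward strand at chr5:75152292-75198215.

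The annotation also showed which counts are uncertain. Exons of *Tagln* overlap those of the opposite-strand genes Gm48529 and *Pcsk7* over 1349 of 1988 bases (67.9%), so that only 639 exon bases are its own. *Tagln* was counted at 7 to 50 reads per kidney, while Gm48529 stood at 0.495 to 1.66 CPM, and the sources used here do not state whether the counting used strand. The overlap was 5.86% of exon bases for *Des* and 6.5% for *Pdgfra*, and the other 7 genes had none. The actins are near-identical proteins, but their transcripts can be told apart: of the 1886 words of 150 bases in *Acta2* and the 1184 in *Actg2*, 0 occur in a transcript of another gene, and of the words of 50 bases 7 of 1986 (0.352%) do in *Acta2* and 0 of 1284 in *Actg2*. The striated muscle actins *Acta1* (2.25 to 6.82 CPM) and *Actc1* (2.67 to 7.53 CPM) were low in all kidneys.

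The promoter windows of 6 of the 10 genes were found in the RefSeq table for GRCm38.p6, and the 250 bases before the RefSeq start were searched for the CArG box, a palindrome that reads alike on both strands, since the contractile genes among them are known targets of serum response factor. *Acta2* and *Myl9* held 2 boxes each with up to 1 mismatch, and *Cnn1*, *Des*, *Vim* and *Pdgfra* held none. Of 32851 windows in the table, 482 (1.47%) held an exact box and 6117 (18.6%) a box with up to 1 mismatch. All boxes found are printed 5′ to 3′ on the strand of the gene, with the box in capitals. The RefSeq start used is chr19 position 34255373 for *Acta2*, which lies inside the span of the gene given above, and chr2 position 156775464 for *Myl9*, likewise inside its span. The stretch printed first spans chr19:34255438-34255467, with a box of 1 mismatch at 34255448 to 34255457 that begins 84 bases before the RefSeq start. The second spans chr19:34255388-34255417, with a box of 1 mismatch at 34255398 to 34255407 that begins 34 bases before that start. For *Myl9* the first stretch spans chr2:156775293-156775322, with an exact box at 156775303 to 156775312 that begins 161 bases before the RefSeq start. The other spans chr2:156775355-156775384, with a box of 1 mismatch at 156775365 to 156775374 that begins 99 bases before it. Both *Acta2* boxes thus lie within the gene's span in GENCODE, and both *Myl9* boxes before it.
Acta2 first box: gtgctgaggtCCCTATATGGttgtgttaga
Acta2 second box: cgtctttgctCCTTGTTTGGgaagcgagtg
Myl9 first box: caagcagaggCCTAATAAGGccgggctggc
Myl9 second box: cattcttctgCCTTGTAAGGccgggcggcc
A match of letters is a description of the window and says nothing of binding in these kidneys.

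In noncystic *Pkd2* +/+ kidneys the 10 genes covered a wide range of levels per kilobase of exon (means ± SD, n = 3). *Myl9* stood highest at 159 ± 20.1 CPM per kilobase, followed by *Acta2* at 49.3 ± 9.89, *Vim* at 38.2 ± 1.94, *Pdgfrb* at 19.8 ± 1.62 and *Pdgfra* at 13.2 ± 0.874 CPM per kilobase, and no mouse overlapped between neighbours in this part of the order. *Des* at 7.51 ± 0.781, *Myh11* at 5.65 ± 1.64, *Cnn1* at 2.33 ± 2.04 and *Actg2* at 2.03 ± 1.83 CPM per kilobase followed, and here each gene overlapped its neighbour. *Tagln* came last at 0.257 ± 0.0563 CPM per kilobase. The same reads divided by its 639 unshared bases gave 0.625 to 0.975 CPM per kilobase. Since that division cannot restore reads that the overlap may have kept from being counted, its place in the order is uncertain. In cystic *Pkd2* +/+ kidneys *Acta2* (204 ± 61.1 CPM per kilobase) came within the range of *Myl9* (243 ± 55.5), and *Actg2* (7.45 ± 3.69) and *Cnn1* (5.65 ± 2.99) were above *Myh11* (4.96 ± 2.49) in the order of the means but overlapped it.

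Cystic *Pkd2* +/+ kidneys were compared with noncystic *Pkd2* +/+ kidneys to ask how the 10 genes stood in cystic disease. Of the 10 genes, 6 rose, 1 fell and 3 did not pass the test (edgeR's quasi-likelihood test, Benjamini-Hochberg adjusted over all genes tested, threshold 0.05). *Acta2*, *Actg2*, *Tagln*, *Cnn1*, *Vim* and *Myl9* were higher, *Pdgfra* was lower, and *Myh11*, *Des* and *Pdgfrb* were not called. Of all genes tested, 16.9% were called higher and 14.2% lower, and the median log2 fold change was 0.74 for the 10 genes against 0.02 for all genes. The 10 genes and the lists below were chosen with earlier results of these data known. Their counts and medians beside those of all genes are therefore descriptions. In whole kidneys a change in the number of cells of a type and a change in RNA per cell cannot be told apart.

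*Acta2* had the largest log2 fold change in this fit, though *Actg2* exceeded it in limma-trend (2.19 against 2.18), with *Xist* as a covariate (2.10 against 2.05), without mouse 20 (2.90 against 2.19) and without mice 20, 23 and 26. *Acta2* stood at 105, 131 and 88.4 CPM in the noncystic and at 298, 554 and 493 CPM in the cystic *Pkd2* +/+ kidneys of mice 19 to 21 and 25 to 27. Every cystic kidney was above every noncystic kidney, and the groups differed 4.14-fold (log2 fold change 2.05, SE 0.19, edgeR adjusted p = 5.07e-07). *Actg2*, the actin of visceral smooth muscle, stood at 1.30, 6.44 and 1.73 CPM in noncystic and at 6.12, 17.6 and 11.1 CPM in cystic kidneys. Mouse 20 lay within the cystic range, so the groups overlapped, and the difference was 3.70-fold (log2 fold change 1.89, SE 0.51, edgeR adjusted p = 0.00854). Its log2 fold change was 1.46 without mouse 26 and 2.90 without mouse 20.

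*Tagln* stood at 0.623, 0.399 and 0.509 CPM in noncystic and at 1.74, 1.81 and 2.07 CPM in cystic kidneys, which is 7 to 12 reads against 37 to 45 reads. The groups did not overlap and differed 3.63-fold (log2 fold change 1.86, SE 0.40, edgeR adjusted p = 0.00177), with the limit that most of its exon bases are shared with opposite-strand genes. *Cnn1* stood at 4.10, 12.7 and 2.29 CPM against 7.51, 23.8 and 15.0 CPM. Mouse 20 again lay inside the cystic range, and the 2.44-fold difference passed the threshold narrowly (log2 fold change 1.28, SE 0.47, edgeR adjusted p = 0.0485). The log2 fold change was 0.83 without mouse 26 and 2.25 without mouse 20. The call held in 6 of 15 alternatives (adjusted p from 9.18e-12 to 0.233) and was lost without mouse 19, 21, 26 or 27 (adjusted p = 0.175, 0.187, 0.233 and 0.0853).

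*Myl9* changed less, from 180, 209.9 and 164 CPM in noncystic to 213, 341 and 294 CPM in cystic kidneys. The lowest cystic kidney, mouse 25, was just above the highest noncystic one, mouse 20, and the groups differed 1.53-fold (log2 fold change 0.62, SE 0.13, edgeR adjusted p = 0.00183). *Myh11*, the myosin of differentiated smooth muscle, was not called. It stood at 40.6, 56.4 and 31.8 CPM in noncystic and at 22.2, 58.8 and 32.2 CPM in cystic kidneys, with the cystic kidneys on both sides of the noncystic range. The fold was 0.876 with a 95% interval from 0.595 to 1.29 (edgeR adjusted p = 0.646), which leaves out a rise of the size seen in *Acta2*. Mouse 26 decided this value, since without it *Myh11* fell by 0.66 on the log2 scale (adjusted p = 0.0258).

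**Figure D1:**
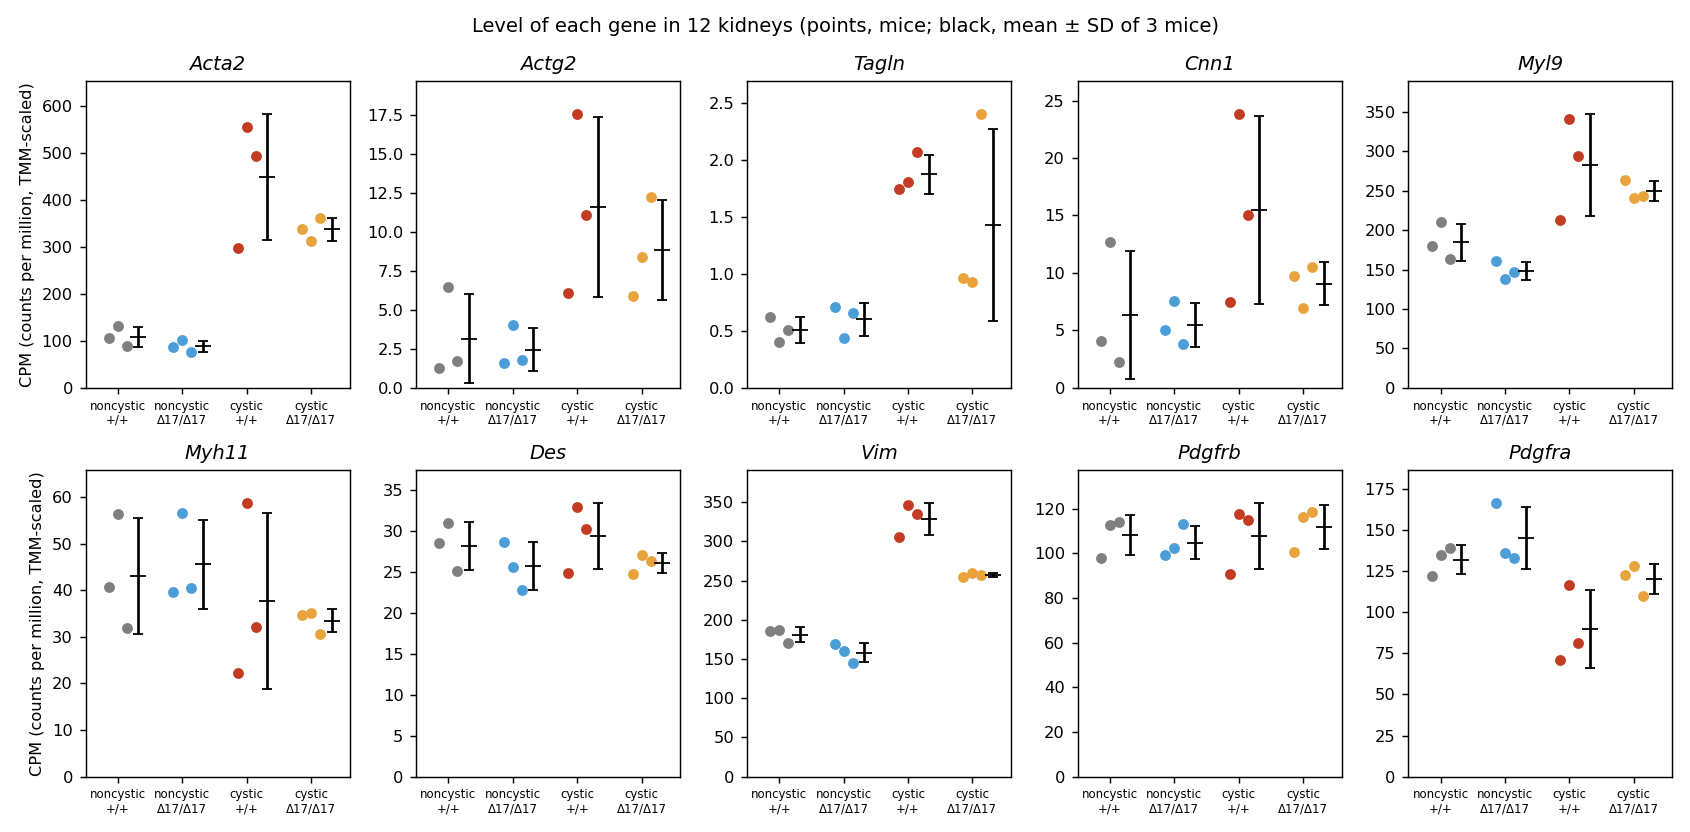
The level of each of the 10 genes in CPM (vertical axes, from 0) in the 3 mice of each group (points), with the mean and SD beside them in black. *Acta2* and *Vim* of both cystic groups lie above all noncystic kidneys, while *Des* and *Pdgfrb* overlap between all groups.

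The intermediate filament genes parted. *Vim* stood at 185, 187 and 170.45 CPM in noncystic and at 306, 346 and 335 CPM in cystic kidneys. The groups lay far apart relative to their spread, with a difference of 1.82-fold (log2 fold change 0.86, SE 0.08, edgeR adjusted p = 5.41e-07). *Des*, which marks muscle, pericytes and mesangial cells, stood at 28.6, 30.9 and 25.1 CPM against 24.9, 32.9 and 30.3 CPM. The ranges of both groups coincided nearly whole, and the fold was 1.04 with a 95% interval from 0.876 to 1.24 (edgeR adjusted p = 0.767).

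The PDGF receptors parted as well. *Pdgfrb*, the receptor of pericytes and perivascular fibroblasts for PDGF-B and PDGF-D, stood at 98.0, 113 and 114 CPM in noncystic and at 90.6, 118 and 115 CPM in cystic kidneys. Its fold was 0.995 with a 95% interval from 0.857 to 1.16 (edgeR adjusted p = 0.970). *Pdgfra*, a receptor of interstitial fibroblasts, stood at 122, 135 and 139 CPM in noncystic and at 71.2, 116.5 and 81.2 CPM in cystic kidneys. All 3 cystic kidneys were below the noncystic ones, mouse 26 only just, and the fold was 0.678 (log2 fold change -0.56, SE 0.14, edgeR adjusted p = 0.00536). *Acta2*, *Actg2*, *Tagln*, *Myl9*, *Vim* and *Pdgfra* kept their calls in 15 of 15 alternatives. Across the 10 genes, 5 did not overlap between the groups, as did 41.7% of all genes tested.

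Scaling bears on the 3 genes that were not called. With library totals in place of TMM factors the median log2 fold change of all genes moved from 0.02 to 0.18, and the calls from 4170 higher and 3495 lower to 6251 higher and 2468 lower. Relative to library totals the log2 fold change of *Pdgfrb* was 0.15 in place of -0.01 (edgeR adjusted p = 0.277). That of *Des* was 0.22 in place of 0.06 (adjusted p = 0.172) and that of *Myh11* -0.03 in place of -0.19 (adjusted p = 0.947). The 10 genes gave 7 calls on either scaling.

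Ratios between genes of one library do not depend on scaling, and these were chosen after the values were seen and carry no test. Per kilobase of exon, *Acta2* exceeded *Myh11* 8.07- to 9.61-fold in noncystic and 32.6- to 53.1-fold in cystic *Pkd2* +/+ kidneys. In the Δ17/Δ17 kidneys the ratio was 6.17 to 7.63 and 30.8 to 40.9. The 6 cystic kidneys thus lay above 30 and the 6 noncystic ones under 10. The ratio of *Acta2* to *Pdgfrb* was 1.94 to 2.91 in noncystic and 8.19 to 11.7 in cystic *Pkd2* +/+ kidneys. *Pdgfra* to *Pdgfrb* was 0.654 to 0.681 in noncystic and 0.386 to 0.541 in cystic *Pkd2* +/+ kidneys, and 0.642 to 0.920 and 0.508 to 0.669 in the Δ17/Δ17 kidneys, where the groups overlapped.

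**Figure D2:**
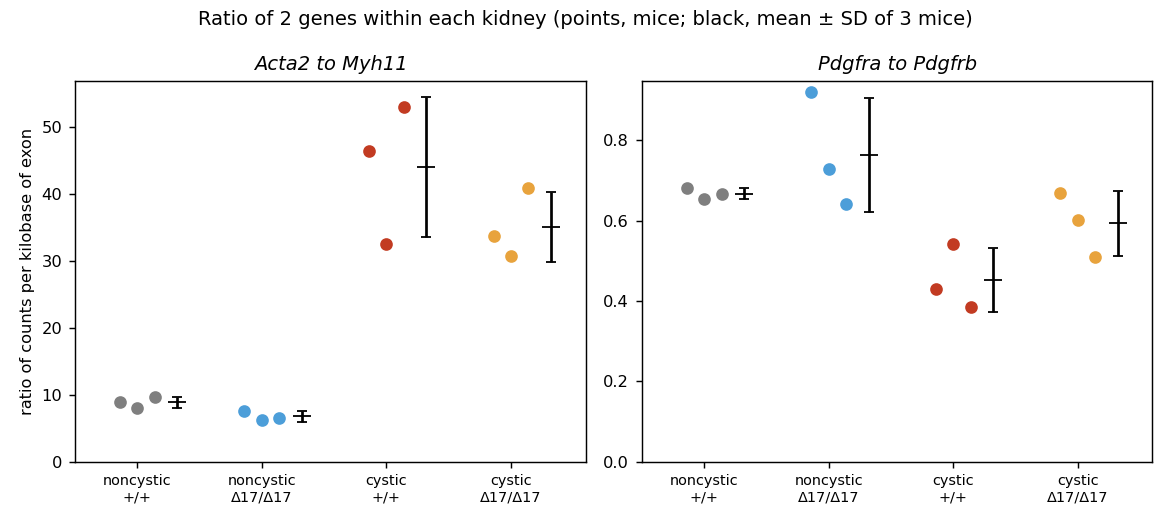
Ratios of counts per kilobase of exon within each kidney (vertical axes, from 0), with the 3 mice of each group as points and their mean and SD in black. *Acta2* to *Myh11* separates cystic from noncystic kidneys with either *Pkd2* genotype, whereas *Pdgfra* to *Pdgfrb* does so with *Pkd2* +/+ and overlaps with Δ17/Δ17.

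Related genes were read from lists, given as counts beside the shares of all genes above. Of 20 further smooth muscle contractile genes, 6 rose, 2 fell and 12 were not called, with a median log2 fold change of 0.06 against 0.02 for all genes. The rising genes were led by *Tpm1* (tropomyosin, log2 fold change 1.71, adjusted p = 7.59e-09) and *Actn1* (the actin crosslinker α-actinin, 1.49, adjusted p = 6.28e-08), which many cells other than muscle use. *Synm*, the muscle filament protein synemin, fell by 0.61 on the log2 scale (adjusted p = 0.0407). The smoothelin gene *Smtn*, tied to differentiated smooth muscle, had a log2 fold change of -0.00 with a 95% interval from -0.16 to 0.15. It shares 16.3% of its exon bases with opposite-strand genes. The leiomodin gene *Lmod1*, tied to such muscle as well, had a log2 fold change of 0.39 (edgeR adjusted p = 0.106). Both were picked after their values were seen and do not stand for the list, which ran from -1.475 to 1.71.

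Among 12 regulators and targets of serum response factor and myocardin, 5 rose and 1 fell, with a median log2 fold change of 0.31. *Vcl*, the focal adhesion gene vinculin, rose by 1.21 (adjusted p = 0.00011) and *Cnn2*, a calponin found outside muscle, by 1.08 on the log2 scale (adjusted p = 2.31e-06), though *Vcl* shares 25.5% of its exon bases with an opposite-strand gene. *Srf* itself had a log2 fold change of 0.15 (adjusted p = 0.387), and *Myocd*, the muscle-restricted coactivator, one of 1.10 with an SE of 0.61 (adjusted p = 0.205). The gene that fell was *Tbx18*, at a very low level and with 20.6% of its exon bases shared with an opposite-strand gene.

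Pericyte and mural cell markers split evenly. Of 16 genes, 4 rose, 4 fell and 8 were not called, with a median log2 fold change of -0.04. *Heyl*, a Notch target (log2 fold change 1.56, adjusted p = 2.58e-08), and *Notch3*, the Notch receptor of mural cells (1.03, adjusted p = 2.32e-06), rose. *Angpt2*, an angiopoietin, fell by 0.84 (adjusted p = 0.00271) and *Kcnj8*, a pericyte potassium channel, by 0.63 on the log2 scale (adjusted p = 0.000941). *Rgs5*, a common pericyte marker, had a log2 fold change of 0.01 (adjusted p = 0.948).

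Of the 4 PDGF ligand genes, *Pdgfb* rose by 0.85 (adjusted p = 3.6e-05) and *Pdgfd* by 0.60 on the log2 scale (adjusted p = 0.000385). Both encode ligands of the receptor whose own gene, *Pdgfrb*, was not called. *Pdgfa*, a ligand of the α receptor, had a log2 fold change of -0.12 (adjusted p = 0.634) and *Pdgfc* one of -0.33 (adjusted p = 0.0583). *Pdgfa* shares 26.1% of its exon bases with an opposite-strand gene.

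Of 20 fibroblast and myofibroblast markers, 14 rose, 1 fell and 5 were not called, with a median log2 fold change of 0.89. *Thy1*, a surface protein of fibroblasts (log2 fold change 2.63, adjusted p = 1.38e-06), and *Mfap4*, a microfibril protein (2.33, adjusted p = 4.79e-09), led the rise. *Lum*, the proteoglycan lumican, fell by 0.70 on the log2 scale (adjusted p = 0.044). The summed level of the list was 2628 to 2940 CPM in noncystic and 4500 to 6296 CPM in cystic *Pkd2* +/+ kidneys, beside the rise of *Acta2* and *Vim*. Sums of the other related lists were higher without overlap too. They were 2019 to 2232 against 3328 to 4217 CPM for smooth muscle genes and 544 to 569 against 814 to 1059 CPM for regulators. Pericyte markers gave 575 to 601 against 627 to 725 CPM and PDGF ligands 147 to 170 against 187 to 232 CPM. A sum weighs the genes of highest level most and is a measure unlike the median log2 fold change.

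**Figure D3:**
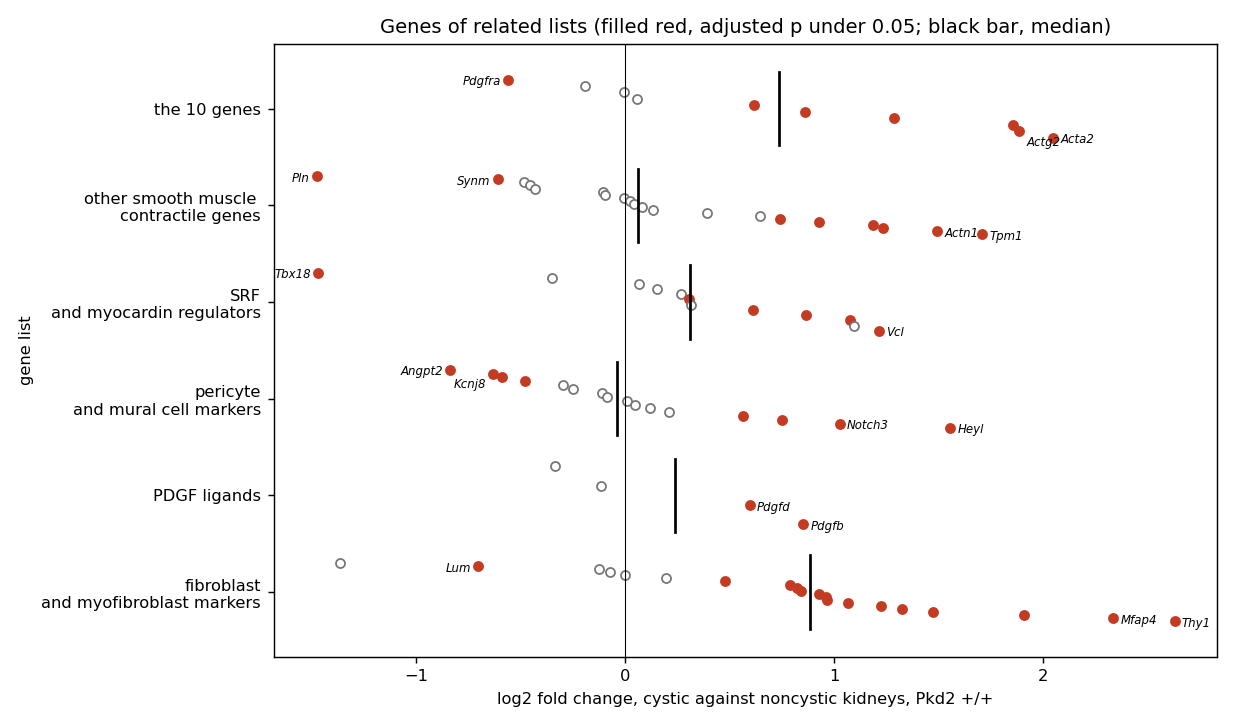
The log2 fold change between cystic and noncystic *Pkd2* +/+ kidneys (horizontal axis) for each tested gene of 6 lists (rows), with genes past the threshold in filled red, the others open and the median of each list as a black bar. The fibroblast list lies mostly above 0 with a median of 0.89, while the smooth muscle and pericyte lists, with medians of 0.06 and -0.04, hold genes called in both directions.

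Markers of other cells moved with the comparison too, and their part in the results above was not tested. Mesangial and juxtaglomerular markers gave 1 rise and 3 falls of 5, with *Serpine2* higher by 0.72 on the log2 scale and the renin gene *Ren1* and the angiotensin receptor gene *Agtr1a* lower (log2 fold changes -1.66 and -0.95). Endothelial markers gave 5 falls of 8, led by *Emcn* and *Tek* (-1.01 and -0.88), and podocyte markers 5 falls of 6, led by *Nphs1* and *Ptpro* (-1.44 and -1.37), with *Synpo*, which also encodes an actin-associated protein, higher by 0.52. Macrophage markers rose in 6 of 6, led by *Mrc1* and *C1qa* (1.89 and 1.84). Of 6 proximal tubule markers 5 fell, led by *Slc34a1* and *Lrp2* (-1.33 and -1.26), and of 6 tubule injury genes 5 rose, led by *Lcn2* and *Havcr1* (4.06 and 2.11). Vimentin is made by podocytes, endothelium, macrophages and injured tubules as well as by fibroblasts, and these lists did not move together. Of the 9 tested skeletal and cardiac muscle genes only *Mb* was called, lower by 1.19 on the log2 scale, and of 6 adrenal gland and fat genes the fat genes *Plin1*, *Cfd* and *Adipoq* fell, by 2.25, 2.08 and 1.99.

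The urothelium of the renal pelvis, which lies against visceral smooth muscle, varied between kidneys of each group. Of its 8 markers 1 rose, *Krt20* (log2 fold change 1.19, adjusted p = 0.0463), which is also in the list of tubule injury genes. Their summed level was 78.4, 211 and 118 CPM in mice 19 to 21, 96.6, 157 and 131 CPM in mice 22 to 24, 20.4, 155 and 61.3 CPM in mice 25 to 27, and 94.8, 63.2 and 49.7 CPM in mice 28 to 30, with none of the 8 at 0 in any kidney. Mice 20, 23 and 26, the highest of their groups, were also those with the most *Myh11*, *Actg2*, *Cnn1* and *Acta2* in their groups, whereas mouse 28, the highest of the fourth group, had the most of none of them. Other lists followed these mice in part. The summed adrenal gland and fat genes were highest of their groups in mice 20 and 23 (372 and 216 CPM) but lowest in mouse 26 (35.0 CPM). The summed fibroblast markers were highest in mice 20 and 26 but lowest of its group in mouse 23. The amount of renal pelvis or of other tissue in each sample is not given, and its part in the levels of these genes was not tested. Without those 3 mice, a choice made after seeing the data, 7 of the 10 genes were again called between cystic and noncystic *Pkd2* +/+ kidneys, with *Acta2* at a log2 fold change of 2.01, *Actg2* at 2.47, *Cnn1* at 1.79 (adjusted p = 0.00145), *Pdgfra* at -0.80 and *Myh11* at -0.44 (adjusted p = 0.0562).

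**Figure D4:**
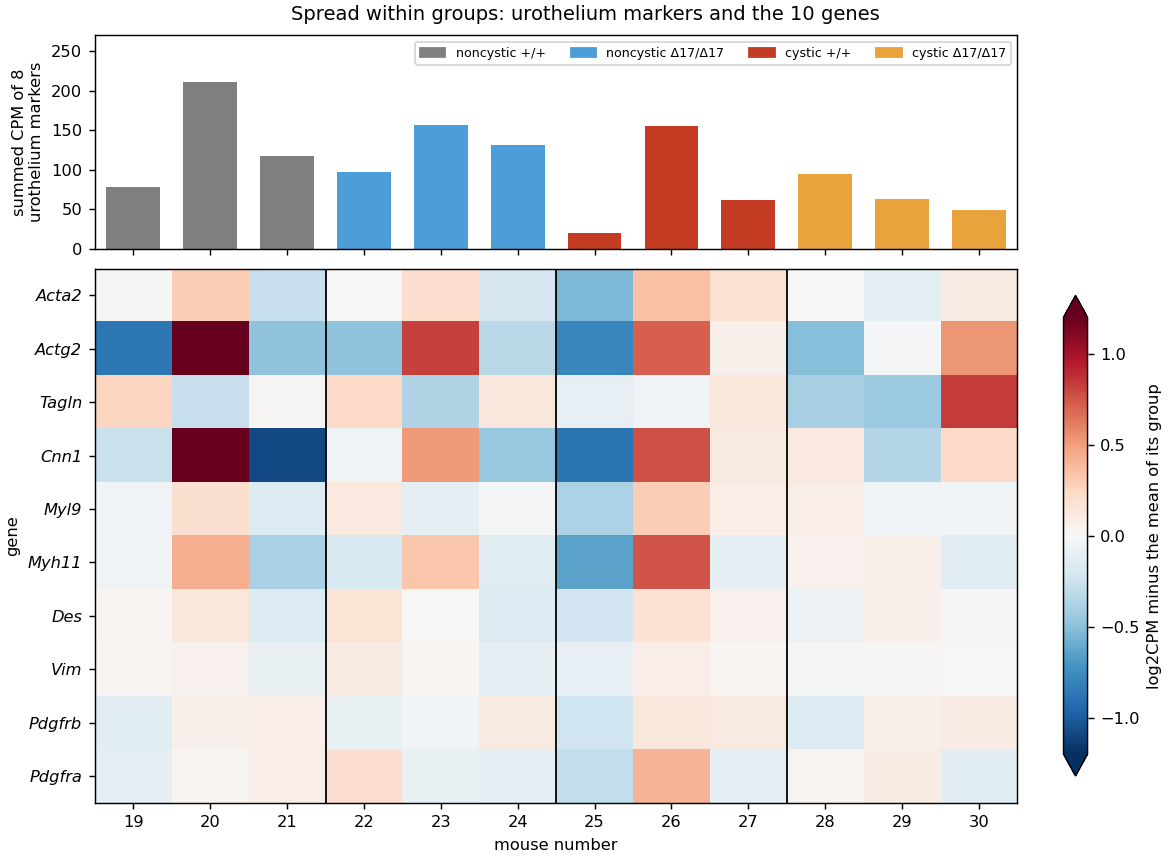
Above, the summed CPM of 8 urothelium markers in each mouse (bars, coloured by group, axis from 0), and below, each gene's log2CPM minus the mean of its group in the same mouse (colour scale, red above and blue below the group mean, values beyond 1.2 drawn at the end of the scale). Mice 20, 23 and 26 have the highest bars of their groups and are red for *Actg2*, *Cnn1* and *Myh11*, while *Tagln* does not follow.

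Within groups some of the 10 genes varied together. Over the 12 mice, as deviations from group means of log2CPM, Pearson's r was 0.90 between *Acta2* and *Cnn1* (Spearman's rho 0.97, r 0.93 without the 2 farthest mice) and 0.87 between *Acta2* and *Myh11* (rho 0.80, r 0.73 without 2). *Des* and *Vim*, of which one rose in cystic kidneys and the other was not called, gave 0.96 (rho 0.92, r 0.95 without 2). *Pdgfrb* and *Pdgfra* gave 0.41 (rho 0.15, r 0.18 without 2), and *Tagln* gave between -0.31 and 0.19 with the other genes, at very few reads. Each pair of values shares its library and its scaling, so these are descriptions with no test.

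The genes outside the 10 with the closest pattern were sought the same way, over genes whose mean log2CPM was 1 or more. Closest to the mean of the 6 contractile genes were *Rsu1* (r = 0.96), a focal adhesion gene, the receptor gene *Ntrk2* (0.95), *S100a6* (0.94), *Drg1* (0.94) and the annexin gene *Anxa2* (0.94), with rho from 0.84 to 0.94 and r from 0.87 to 0.93 without the 2 farthest mice. Closest to *Pdgfrb* were *Rela* (r = 0.97), a subunit of NF-κB, *Rras* (0.94), the ribosomal gene *Rpl13a* (0.94), *Pdlim7* (0.94) and the claudin gene *Cldn4* (0.92), with rho from 0.71 to 0.92 and r from 0.85 to 0.97 without 2. They were picked as the highest of many genes over 12 kidneys of 4 groups.

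Cystic and noncystic kidneys were then compared among *Pkd2* Δ17/Δ17 mice, which share no kidney with the comparison above. Of the 10 genes 5 rose, namely *Acta2*, *Actg2*, *Tagln*, *Vim* and *Myl9*, 0 fell and 5 were not called, where 12.8% of all genes were called higher and 10.2% lower. With library totals the calls over all genes moved from 3164 higher and 2515 lower to 5334 higher and 1657 lower, and the 5 genes kept their calls. The median log2 fold change was 0.72 for the 10 genes against -0.00 for all genes. In the order of mice 22 to 24 and 28 to 30, *Acta2* stood at 87.2, 101 and 76.1 CPM in noncystic and at 338, 312 and 361 CPM in cystic kidneys. The groups did not overlap and differed 3.83-fold (log2 fold change 1.94, SE 0.19, edgeR adjusted p = 2.45e-06). *Vim* stood at 168, 160.05 and 145 CPM against 255, 259 and 257 CPM, without overlap, and differed 1.63-fold (log2 fold change 0.70, SE 0.08, edgeR adjusted p = 9.43e-06).

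*Myl9* went from 161, 138 and 147 CPM to 264, 240.4 and 243 CPM, again without overlap (log2 fold change 0.75, SE 0.13, edgeR adjusted p = 0.000568). *Actg2* went from 1.58, 4.04 and 1.76 CPM to 5.91, 8.41 and 12.3 CPM, also without overlap (log2 fold change 1.85, SE 0.52, edgeR adjusted p = 0.0157). *Tagln* went from 0.708, 0.436 and 0.660 CPM to 0.961, 0.929 and 2.40 CPM (log2 fold change 1.24, SE 0.40, edgeR adjusted p = 0.034). Mouse 30 carried much of the last difference, which was 0.65 without it (adjusted p = 0.29). *Actg2* lost its call without mouse 22, 24 or 30 (adjusted p = 0.0717, 0.0705 and 0.0696) and *Tagln* in 7 of 15 alternatives, among them without mouse 22, 23, 24 or 30.

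*Cnn1* stood at 5.07, 7.53 and 3.80 CPM against 9.71, 6.99 and 10.5 CPM and was not called (log2 fold change 0.73, SE 0.48, adjusted p = 0.323). *Myh11* stood at 39.6, 56.5 and 40.5 CPM against 34.7, 35.1 and 30.5 CPM. Its groups did not overlap, with the cystic kidneys below, but the difference did not pass the test (log2 fold change -0.45, SE 0.26, adjusted p = 0.268). *Pdgfra* stood at 167, 136 and 133 CPM against 123, 128 and 110.05 CPM and was not called either (log2 fold change -0.27, SE 0.14, adjusted p = 0.192), with no overlap and the cystic kidneys below. *Des* and *Pdgfrb* had folds of 1.02 (95% interval 0.853 to 1.21) and 1.07 (0.918 to 1.24). With library totals their log2 fold changes were 0.18 and 0.24 (edgeR adjusted p = 0.310 and 0.0853). Of the 10 genes 7 did not overlap between the groups, beside 37.9% of all genes. The call on *Myh11* and *Pdgfra* changed in 2 of 15 alternatives each. Of the related lists, 7 of 20 smooth muscle genes rose and 1 fell, 6 of 12 regulators and targets of serum response factor rose and 0 fell, 4 of 16 pericyte and mural cell markers rose and 2 fell, 2 of 4 PDGF ligand genes rose, and 15 of 20 fibroblast markers rose and 0 fell. The summed fibroblast markers were 2283 to 2783 CPM in noncystic and 3983 to 5328 CPM in cystic Δ17/Δ17 kidneys. The smooth muscle genes summed to 1900 to 1984 against 3089 to 3469 CPM and the regulators to 508 to 530 against 798 to 861 CPM. Pericyte markers gave 518 to 574 against 639 to 725 CPM and PDGF ligands 131 to 151 against 189 to 225 CPM.

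**Figure D5:**
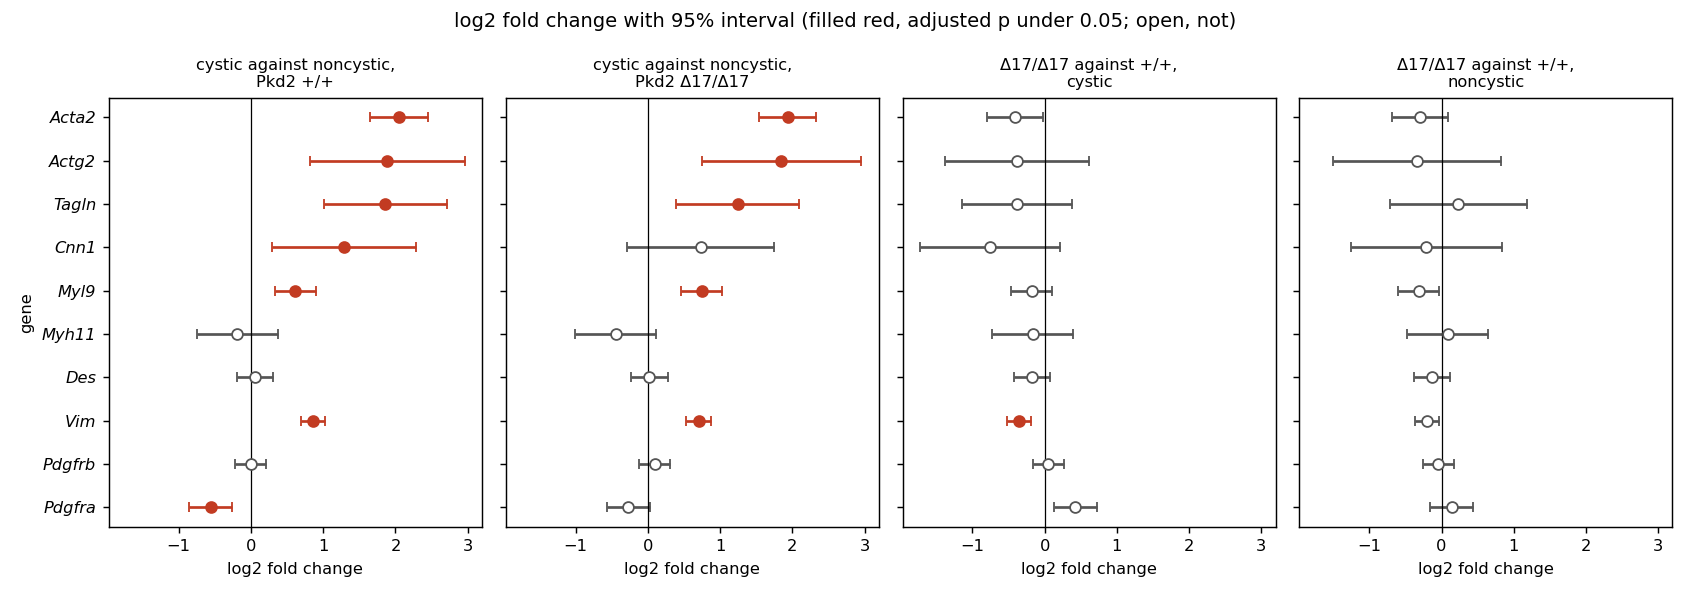
The log2 fold change (horizontal axes) of each gene in 4 comparisons (panels), with 95% intervals as bars, filled red where the adjusted p of edgeR's test was under 0.05. Both comparisons of cystic with noncystic kidneys have *Acta2*, *Actg2*, *Tagln*, *Myl9* and *Vim* to the right of 0, and the comparisons by *Pkd2* genotype hold 1 filled point, *Vim* in cystic kidneys.

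Cystic *Pkd2* Δ17/Δ17 kidneys were compared with cystic *Pkd2* +/+ kidneys to ask what the loss of the motif changed in disease. Of the 10 genes only *Vim* passed the test and fell, where 1.19% of all genes were called higher and 1.04% lower, and the median log2 fold change was -0.27 for the 10 genes against 0.00 for all genes. *Vim* stood at 306, 346 and 335 CPM in mice 25 to 27 and at 255, 259 and 257 CPM in mice 28 to 30. The groups did not overlap, and the fold was 0.782 with a 95% interval from 0.696 to 0.878 (log2 fold change -0.36, SE 0.08, edgeR adjusted p = 0.0281). The call held in 8 of 15 alternatives. It was lost without mouse 26, 27, 28, 29 or 30 (adjusted p = 0.0835, 0.112, 0.128, 0.109 and 0.0518), in a fit on the cystic groups alone (adjusted p = 0.0763) and without mice 20, 23 and 26 (adjusted p = 0.101), while the log2 fold change stayed between -0.40 and -0.32 with any 1 mouse left out. This comparison shares its cystic *Pkd2* +/+ kidneys with the one above, where *Vim* was 1.82-fold higher.

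*Acta2* stood at 298, 554 and 493 CPM against 338, 312 and 361 CPM. The Δ17/Δ17 kidneys were close together, and the lowest of all was mouse 25 of the +/+ group, so the groups overlapped (fold 0.752, 95% interval 0.576 to 0.980, edgeR adjusted p = 0.301). *Pdgfra* had a fold of 1.34 (95% interval 1.09 to 1.65, edgeR adjusted p = 0.141). Without mouse 26 its log2 fold change was 0.66 in place of 0.43 and passed the test (adjusted p = 0.00545), and without mouse 25 *Acta2* did, lower by 0.64 on the log2 scale (adjusted p = 0.0135). With any 1 mouse left out *Pdgfra* ran from 0.28 to 0.66 and *Acta2* from -0.64 to -0.23. *Pdgfra* was called in 3 of 15 alternatives and *Acta2* in 2 of 15. *Cnn1* had a fold of 0.590 with a wide 95% interval from 0.301 to 1.16, and the others lay between 0.766 for *Tagln* and 1.04 for *Pdgfrb*. In all, 2 of the 10 genes besides *Vim* had an unadjusted p under the threshold in edgeR's fit, *Acta2* and *Pdgfra*. The share of all genes with such an unadjusted p is not given here, so this count cannot be set against it. Beside 19% of all genes, *Vim* was the one of the 10 without overlap.

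Spread within the cystic groups differed for several contractile genes and for *Vim*, as a description with 3 mice each. The coefficient of variation of *Acta2* was 29.9% in *Pkd2* +/+ and 7.2% in Δ17/Δ17 kidneys, that of *Myh11* 50.2% and 7.53%, and that of *Vim* 6.29% and 0.895%. *Actg2* was wide in both, with 49.5% and 36.1%, and *Tagln* went the other way, with 9.26% and 58.9%.

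From the other lists, the genes called between the cystic groups were *Actn1* among smooth muscle genes (log2 fold change -0.49, adjusted p = 0.025) and *Mfap4* among fibroblast markers (-0.90, adjusted p = 0.00146). None of the pericyte, PDGF ligand and regulator genes was called in edgeR's fit. An unadjusted p under the threshold was found for 2, 1 and 3 of them, again with no share of all genes beside it. The summed fibroblast markers were 4500 to 6296 CPM in cystic *Pkd2* +/+ and 3983 to 5328 CPM in Δ17/Δ17 kidneys. Among markers of other cells that may make vimentin, 2 of 6 macrophage markers fell (*Cd68* and *C1qa*, log2 fold changes -0.63 and -0.92) and 3 of 6 tubule injury genes fell (*Havcr1*, *Lcn2* and *Vcam1*, -1.72, -1.09 and -1.003), while 1 of 8 endothelial (*Tek*), 1 of 5 mesangial and juxtaglomerular (*Agtr1a*) and 2 of 6 proximal tubule markers (*Lrp2* and *Aqp1*) rose. The macrophage list summed to 341 to 428 CPM in *Pkd2* +/+ and 243 to 320.44 CPM in Δ17/Δ17 kidneys. The part of these cells in the level of *Vim* was not tested. Of the urothelium, podocyte, muscle, and adrenal gland and fat lists no gene was called.

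In noncystic kidneys the deletion was compared with *Pkd2* +/+ in the same way. None of the 10 genes was called by edgeR, DESeq2 or limma-trend. In edgeR's fit 2 had an unadjusted p under the threshold, *Myl9* and *Vim*, both at an adjusted p of 0.771. Here too the share of all genes with such an unadjusted p is not given. Of all genes tested, 0.00406% were called, which is 1 gene. *Myl9* stood at 180, 209.9 and 164 CPM in +/+ and at 161, 138 and 147 CPM in Δ17/Δ17 kidneys, a fold of 0.805 with a 95% interval from 0.660 to 0.980. *Vim* stood at 185, 187 and 170.45 CPM against 168, 160.05 and 145 CPM, a fold of 0.872 with a 95% interval from 0.775 to 0.980. These were the 2 genes of the 10 whose groups did not overlap, while 10.8% of all genes did not. The other folds ran from 0.789 for *Actg2*, with a 95% interval from 0.352 to 1.76, to 1.17 for *Tagln*, with one from 0.608 to 2.26. *Pdgfrb* was held most closely, at 0.968 with a 95% interval from 0.833 to 1.13. No gene of the other lists was called.

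Whether the change from noncystic to cystic kidneys differed between the *Pkd2* genotypes was tested by the interaction term. None of the 10 genes was called by edgeR, DESeq2 or limma-trend, and 0 had an unadjusted p under the threshold in edgeR's fit, where 0.0122% of all genes (3 genes) were called. The interaction ran from -0.62 for *Tagln* (95% interval -1.83 to 0.60) to 0.29 for *Pdgfra* (-0.13 to 0.71) on the log2 scale. For *Acta2* it was -0.11 with a 95% interval from -0.66 to 0.43, and for *Vim* -0.16 with one from -0.39 to 0.08. The fall of *Vim* in cystic Δ17/Δ17 kidneys and its lower level in noncystic Δ17/Δ17 kidneys were thus not shown to differ. That *Cnn1* and *Pdgfra* were called with one genotype and not with the other was not shown to be a difference either, with interactions of -0.55 (adjusted p = 0.881) and 0.29 (adjusted p = 0.755).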

How the data were processed

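Per the labels, RNA was extracted from flash-frozen whole kidneys with a Qiagen miRNeasy kit and libraries were made by Genewiz. The authors trimmed reads with Trim Galore (0.6.3) and counted genes with STAR (2.5.3a) on GRCm38, as the submitters' processing notes list them, and deposited whole-number counts per gene, with no normalization. The strand column of the counts is not given in the sources used here. All 12 columns were mapped to mice by the labels. The 343 genes with no name held 0.0225% of the counts. Of the gene identifiers, 99.93% matched GENCODE M21, from which exon lengths and overlaps were taken.

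The counts went into edgeR 4.0.16 under R 4.3.3. Its quasi-likelihood test used TMM factors and fitted all 12 mice together with a mean for each of the 4 groups (residual degrees of freedom 8). Genes were kept where log2CPM (prior count 2) averaged -3 or more, with Benjamini-Hochberg adjustment over 24642 genes and a threshold of 0.05. The SE of a log2 fold change is an approximation, its absolute value divided by the square root of the test's F statistic. Intervals (95%) are built from this SE and take the test's degrees of freedom. Where log2CPM averaged 1 or more, the median SE of a log2 fold change between cystic and noncystic *Pkd2* +/+ kidneys was 0.11. Alternatives used limma 3.58.1 (limma-trend, library totals, prior count 3, the study's method), DESeq2 1.42.0, other scalings and filters, *Xist* as a covariate, the compared groups alone and each mouse left out. The fit without mice 20, 23 and 26 was added after seeing the data. No mouse number is shared between groups.

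All 10 genes were reported in each comparison. From 14 other lists the text names the 2 called genes that rose most and the 2 that fell most between cystic and noncystic *Pkd2* +/+ kidneys (where log2CPM averaged 0 or more), and for the smooth muscle, pericyte, ligand, regulator and fibroblast lists those called between the cystic groups. *Smtn*, *Lmod1*, *Srf*, *Myocd*, *Tbx18*, *Rgs5*, *Pdgfa*, *Pdgfc* and the other genes called between the cystic groups were named after their values were seen. The 10 genes and the lists were chosen with earlier results of these data known.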

Additional observations from a re-analysis of the deposited data

How the results depend on the processing

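The 10 genes gave 6 or 7 calls between cystic and noncystic *Pkd2* +/+ kidneys under every alternative. Between the cystic groups there were 4 calls with no cutoff on low counts and 0 in the fit on the compared groups only, and 0 to 2 with a mouse left out. Between the groups of Δ17/Δ17 mice there were 8 calls with no cutoff and 3 to 5 with a mouse left out. That comparison gave, over all genes, 3278 calls higher and 2752 lower of 33191 with no cutoff. With a mouse left out it gave 2475 to 2704 higher and 1880 to 2304 lower. Between cystic and noncystic *Pkd2* +/+ kidneys these totals were 4260 and 3570 with no cutoff, and 3317 to 3894 and 2973 to 3321 with a mouse left out. Over all genes, calls between the cystic groups were 293 higher and 256 lower, against 564 and 564 with DESeq2, 815 and 824 with no cutoff, 99 and 68 in the fit on the compared groups only, and 70 to 469 and 43 to 392 with a mouse left out. In noncystic kidneys 1 gene became 3 with DESeq2 and 72 higher and 52 lower with no cutoff, and for the interaction 3 genes became 89 higher and 45 lower with DESeq2 and 294 and 272 with no cutoff. The causes were not tested. The following log2 fold changes, none of them called with all 12 mice in the fit reported, changed sign. Between cystic and noncystic *Pkd2* +/+ kidneys *Pdgfrb* was 0.15 with library totals, 0.15 with limma-trend and 0.068 with *Xist* as a covariate, and with a mouse left out it ran from -0.075 to 0.10, *Myh11* from -0.66 to 0.083 and *Des* from -0.036 to 0.17. Between the cystic groups *Pdgfrb* was -0.013 with *Xist*, *Actg2* 0.051 and *Myh11* 0.31 without mice 20, 23 and 26, and with a mouse left out *Pdgfrb* ran from -0.059 to 0.12, *Actg2* from -0.69 to 0.046 and *Myh11* from -0.44 to 0.30. In noncystic kidneys *Cnn1* was 0.093 with limma-trend, *Pdgfrb* 0.0196 with *Xist*, and *Actg2* 0.14 and *Cnn1* 0.47 without those 3 mice, and with a mouse left out *Actg2* ran from -0.90 to 0.68, *Cnn1* from -0.62 to 0.77 and *Myh11* from -0.10 to 0.32. Between the Δ17/Δ17 groups *Des* was -0.0028 with DESeq2's size factors and with its Wald test and -0.00079 without those 3 mice, and ran from -0.057 to 0.10 with a mouse left out. The interaction was -0.032 for *Pdgfrb* with *Xist*, and 0.018 for *Acta2* and 0.16 for *Myh11* without those 3 mice. With a mouse left out it ran from -0.34 to 0.067 for *Acta2*, -1.07 to 0.52 for *Actg2*, -0.53 to 0.22 for *Myh11*, -0.035 to 0.29 for *Myl9*, -0.14 to 0.067 for *Des* and -0.012 to 0.17 for *Pdgfrb*. The low counts of *Tagln* and the spread of *Actg2* and *Cnn1* limit what 3 mice a group can show. No paired analysis was possible because the groups share no replicate numbers.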
